A study of Mus musculus with 4 samples.

Results

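The 40 collagen genes on a whole-genome mouse array were examined in B16-F10 cells, a pigmented mouse melanoma line grown in culture. Their members were all non-control probes whose gene name has the form Col, a number, a and a number, which gave 78 probes and 96 spots among 41174 probes. Each of 4 Agilent 2-colour arrays held, in the Cy5 channel, total RNA of cells given a goat polyclonal antibody against mouse TIM3 and, in the Cy3 channel, total RNA of cells of the same passage given unspecific goat IgG. The labels of replicates 1, 2 and 4 call the antibody an agonist, while replicate 3 is identified by its Cy5 source name and has no Cy5 treatment text of its own. Both were used at 15 ug/ml for 2 h where a treatment text is given, in high-glucose DMEM with serum, and the arrays came from passages 14, 16, 18 and 19 (replicates 1 to 4). All cells were of 1 line, and since every array had the same dye orientation, dye and antibody cannot be told apart for any probe.

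Collagens are extracellular matrix proteins built from alpha chains that wind into a helix, in which glycine recurs in a Gly-X-Y repeat. Fibrillar collagens form the fibrils of connective tissue and cartilage, type IV collagens form the network of basement membranes, fibril-associated collagens sit on fibril surfaces, and others form short-chain networks, microfilaments, anchoring fibrils or transmembrane proteins. Chains are hydroxylated, glycosylated and folded in the endoplasmic reticulum, secreted, trimmed by proteases and cross-linked, and cells bind them through discoidin domain receptors and certain integrins.

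Each probe is a 60-base sequence, and the results below turn on single probes, so a few are shown as the array design gives them, 5′ to 3′, with positions in the design's mouse build mm7. The first set shows what is specific and what is shared between probes of 1 gene: the capitals mark the 40 bases that the pair of Col2a1 probes have in common (chr15:97979237-97979296 and chr15:97979257-97979316), which makes their values less than independent.
Col2a1 A_51_P317141: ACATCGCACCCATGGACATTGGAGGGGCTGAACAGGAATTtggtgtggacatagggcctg
Col2a1 A_52_P216436: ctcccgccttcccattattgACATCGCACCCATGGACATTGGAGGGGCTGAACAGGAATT
Between probes of different collagen genes the longest common run was 11 bases. The second set shows probes that lie on the helical repeat itself, found as those with a glycine codon (GG and any base) at every 9 bases along the whole probe. They were 3 of the 78 probes, and the capitals mark the glycine codons.
Col11a2 A_52_P563285 (chr17:32131401-32131567): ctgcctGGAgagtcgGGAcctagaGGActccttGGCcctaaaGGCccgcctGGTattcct
Col5a1 A_52_P237371 (chr2:27994034-27996457): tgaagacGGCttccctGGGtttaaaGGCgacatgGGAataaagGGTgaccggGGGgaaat
Col5a3 A_52_P503796 (chr9:20655471-20656200): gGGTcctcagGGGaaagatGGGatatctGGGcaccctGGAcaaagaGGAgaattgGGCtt
The third set holds probes of the genes whose signal differed most between passages, without marked bases.
Col1a1 A_51_P377094 (chr11:95059777-95059836): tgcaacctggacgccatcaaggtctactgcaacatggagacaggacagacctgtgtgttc
Col8a1 A_52_P282058 (chr16:57488371-57488430): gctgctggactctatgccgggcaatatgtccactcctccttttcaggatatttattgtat

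Melanoma identity of the cultures was checked through melanocyte markers, of which 7 of 7 were tested and detected in both channels on all 4 arrays. Of 8 fibroblast markers 4 were tested. Postn and Pdgfrb were detected in both channels on all 4 arrays, and Pdgfra and Lum were not. Thy1, Fap, Dcn and Twist2 were never above background. Of 6 endothelial markers 1 was tested and of 6 leukocyte markers 3 were tested. On the leukocyte list Cd3e and Cd68 were detected in both channels on all 4 arrays. The summed deposited signal of the tested fibroblast markers ranged over the arrays from 1160 to 1630 in anti-TIM3 cells, against 1160 to 1560 in IgG cells. That of the melanocyte markers was 452000, 382000, 373000 and 371000 in anti-TIM3 cells at passages 14, 16, 18 and 19, against 421000, 317000, 328000 and 342000 in IgG cells, the higher in anti-TIM3 cells on every array. After loess, limma called 5 of the 7 higher on their brightest probe (adjusted p under 0.05), against a background of 14.2% of all tested probes. Their mean log2 ratios of anti-TIM3 over IgG were 0.58 for Mlana, 0.51 for Pmel, 0.48 for Dct, 0.41 for Tyrp1 and 0.18 for Sox10. A second Sox10 probe went the other way and passed, at -0.30 (limma adjusted p = 0.00302), so the Sox10 probes disagreed. Second probes of Dct and Mitf were higher, at 0.62 and 0.15 (limma adjusted p = 0.000334 and 0.0293). In the deposited ratios 1 of the 7, Mlana, was called higher, and whether this move has a part in the collagen ratios was not tested. Of the 4 tested fibroblast markers 0 were called after loess. In the deposited ratios 2 were higher, Pdgfra at 0.46 and Pdgfrb at 0.19 (limma adjusted p = 0.0385 and 0.0476), against 10.8% of all tested probes. With 4 arrays the precision of every value is limited, and each p-value rests on passage-to-passage spread in a single line.

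Of the 40 collagen genes, 22 were measurable in these melanoma cells in both channels of every array. For 22 of them (27 probes) the scanner software flagged both dyes as well above background every time. Taken singly, the Cy5 channel of anti-TIM3 cells showed 39 collagen probes (50% of the 78) on all arrays, and the Cy3 channel of IgG cells showed 27 (34.6%). Over all 41174 probes these shares were 61.2% in Cy5 and 50% in Cy3, so the channels differ in what they detect well beyond the collagens, and a gene seen in Cy5 alone is not thereby a gene seen with the antibody alone. No collagen probe was saturated.

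By family, the basement membrane chains were nearly complete, with 5 of 6 type IV genes (Col4a1, Col4a2, Col4a4, Col4a5 and Col4a6) detected in both channels on all arrays. For Col4a6 this rests on 1 of its 3 probes, and the others were never above background. The missing chain was Col4a3, which has 3 probes, and of these only 1 was above background, on 1 array in Cy5. The cartilage-type chains were also present: Col2a1, the fibril-forming chain of cartilage, Col9a1, Col9a2 and Col9a3, which together make type IX collagen on its fibrils, and Col11a2, a minor chain of the same fibrils. Both chains of type I collagen, Col1a1 and Col1a2, were detected in both channels on all arrays, as were Col5a1 and Col5a3 of type V collagen, a regulator of fibril diameter. Type VI collagen, which forms beaded microfilaments, was at the edge of detection. Its Col6a1 probe was above background on 3 arrays in Cy5 and 2 in Cy3, Col6a2 had a probe above background on 4 arrays in Cy5 and 2 in Cy3, and Col6a3 on 1 and 0.

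The other genes detected in both channels on all arrays were Col7a1 of the anchoring fibrils, Col8a1 of short-chain networks, the fibril-associated Col14a1, Col16a1 and Col20a1, the multiplexins Col15a1 and Col18a1 (whose end fragments include endostatin), and the transmembrane Col25a1. Detection of Col14a1, Col15a1 and Col16a1 rests on 1 of 2 probes each, and that of Col25a1 on 1 of 3. Col3a1, the partner of type I collagen in soft tissues, and Col17a1, the hemidesmosomal transmembrane collagen, were above background on 4 arrays in Cy5 and on 0 in Cy3. Col10a1 was so on 3 and 0 arrays, Col11a1 on 4 and 2, Col22a1 on 4 and 3, and Col27a1 on 4 and 1. No probe was above background on any array in either channel for 5 genes, namely Col5a2, Col8a2, Col19a1, Col24a1 and Col28a1. Together with Col4a3, Col6a3, Col12a1, Col13a1 and Col23a1, seen in Cy5 only, on 3 arrays for Col23a1 (no single probe on more than 2) and on 1 array for the others, they are the 10 genes with no tested probe.

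**Figure D1:**
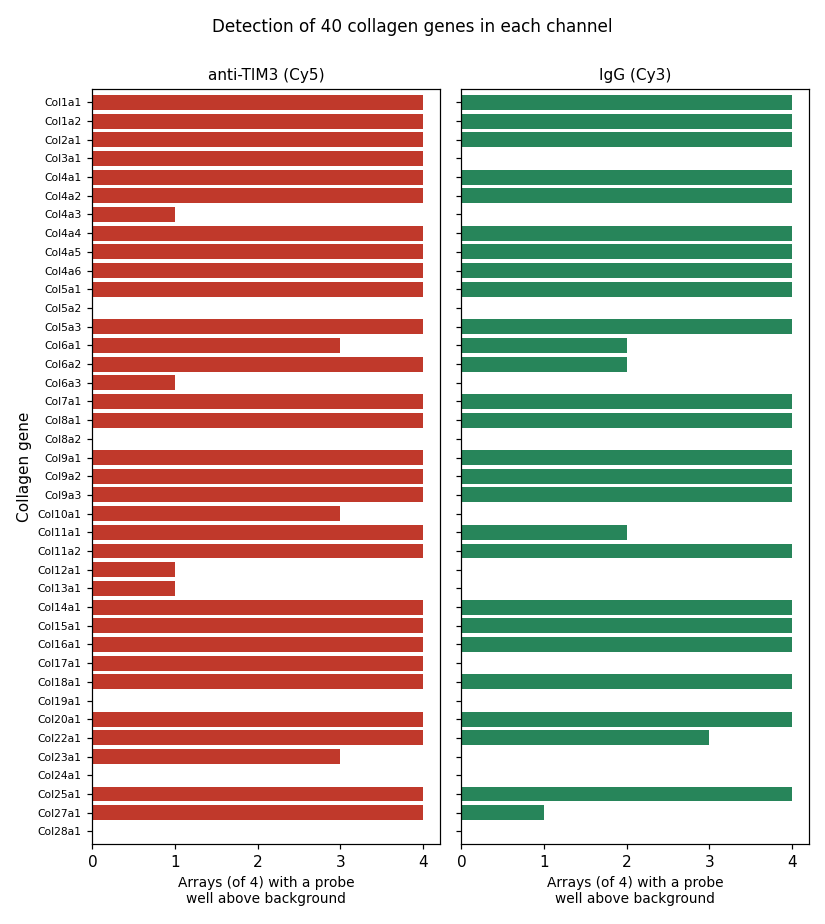
Number of arrays (of 4, x axis) on which at least 1 probe of each of the 40 collagen genes (y axis) was well above background, with anti-TIM3 cells (Cy5) on the left and IgG cells (Cy3) on the right. Bars reach 4 in both panels for 22 genes, and 5 genes have no bar in either panel.

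Several collagen RNAs differed by up to 3.13 (log2) between passages, while no mean ratio of anti-TIM3 over IgG after loess passed 0.33 in size. In the authors' deposited ratios the largest mean of a tested collagen probe was 0.68, for Col17a1. Values per array are given in the order of passages 14, 16, 18 and 19 throughout. Levels of a probe are given as log2 intensity of 1 channel after background correction, loess and scaling of the average intensities between arrays, and are compared only within a probe. Among the 27 collagen probes well above background throughout, 8 (of Col1a1, Col1a2, Col2a1, Col5a1, Col8a1 and Col9a1) differed by more than 1 on the log2 scale between their highest and lowest passage in both channels. The same held for 0.662% of the 20554 probes of any gene with that degree of detection. The median range, taking the smaller of the 2 channels, was 0.34 for the collagen probes and 0.18 for all probes. Each passage was 1 array, so passage and array cannot be told apart, and these ranges carry no test.

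Col1a1, the main chain of type I collagen, had the largest range in the anti-TIM3 channel among the collagen probes. On its probe A_52_P525107 the deposited signal was 883, 3570, 6780 and 4860 in anti-TIM3 cells at passages 14, 16, 18 and 19, against 844, 3280, 6010 and 4090 in IgG cells. The signal at passage 14 was by far the lowest in both channels and passage 18 the highest, while the channels of 1 array lay close together. In log2 levels the range was 3.13 in anti-TIM3 cells and 3.00 in IgG cells, and 0.0243% of all probes had a range as large in both channels. The probe was printed 10 times on each array, and the log2 ratios of those spots had an SD of 0.0187 to 0.0324 within an array. The other detected Col1a1 probe, A_51_P377094, shown above, kept the same order, with levels of 7.18, 8.37, 9.13 and 8.41 in anti-TIM3 cells and 7.26, 8.37, 9.05 and 8.50 in IgG cells. Col1a2, the other type I chain, had levels of 7.94, 8.65, 9.14 and 8.83 in anti-TIM3 cells and 7.86, 8.62, 8.95 and 8.71 in IgG cells, the narrowest of the 8 ranges.

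Col8a1, a chain of the short-chain network of vessel walls and of Descemet's membrane, had a range of 3.03 in anti-TIM3 cells and 3.02 in IgG cells. Its probe A_52_P282058, shown above, had a deposited signal of 195, 709, 1690 and 1180 in anti-TIM3 cells, against 160, 651, 1540 and 1050 in IgG cells. Passage 18 stood 8.18-fold above passage 14 in anti-TIM3 cells and 8.08-fold in IgG cells, and 0.0195% of all probes had a range as large. The second Col8a1 probe, A_52_P292792, missed the background flag on 1 array of Cy3 and is not among the 27. Its deposited signal was 26.4, 120, 312 and 247 in anti-TIM3 cells, against 21.6, 105, 318 and 206 in IgG cells, with the same order of passages in both channels.

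The cartilage-type chains Col2a1 and Col9a1 moved in the same order. The levels of Col9a1 were 7.38, 8.31, 9.49 and 8.82 in anti-TIM3 cells, against 7.44, 8.31, 9.47 and 8.86 in IgG cells. Those of Col2a1 on A_51_P317141 were 7.03, 7.86, 9.10 and 8.25 in anti-TIM3 cells, against 7.08, 7.91, 9.04 and 8.38 in IgG cells, and the overlapping probe A_52_P216436 gave 7.83, 8.31, 9.39 and 8.75 against 7.81, 8.31, 9.34 and 8.85. In all of these passage 14 was lowest and passage 18 highest. Col5a1, which sets fibril diameter, had levels of 10.49, 11.71, 12.45 and 12.09 in anti-TIM3 cells, against 10.60, 11.57, 12.39 and 12.07 in IgG cells, again in that order. Col6a1, too dim to be among the 27, had a deposited signal of 4.91, 28.5, 90.5 and 51.9 in anti-TIM3 cells, against 7.14, 38.2, 89.0 and 51.9 in IgG cells.

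Other chains of the same families did not share this spread. Col9a2 had levels of 8.48, 8.51, 8.56 and 8.43 in anti-TIM3 cells, against 8.63, 8.55, 8.56 and 8.49 in IgG cells, so that within type IX collagen 1 chain had a range of 2.11 and another of 0.13 in anti-TIM3 cells. Col9a3 had a range of 0.09 in anti-TIM3 cells and 0.10 in IgG cells, although its signal was close to background, where the correction's offset compresses ranges. Col5a3 had a range of 0.10 in anti-TIM3 cells and 0.34 in IgG cells, at levels of 10.30, 10.39, 10.35 and 10.40 in anti-TIM3 cells and 10.52, 10.31, 10.18 and 10.53 in IgG cells. The 8 type IV probes, all well above background, had ranges of at most 0.53 in anti-TIM3 cells and 0.35 in IgG cells, and on both Col4a4 probes passage 14 was highest and passage 18 lowest in both channels. Col7a1 and Col18a1 lay between, with ranges of 0.88 and 0.72 in anti-TIM3 cells and 0.89 and 0.88 in IgG cells.

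**Figure D2:**
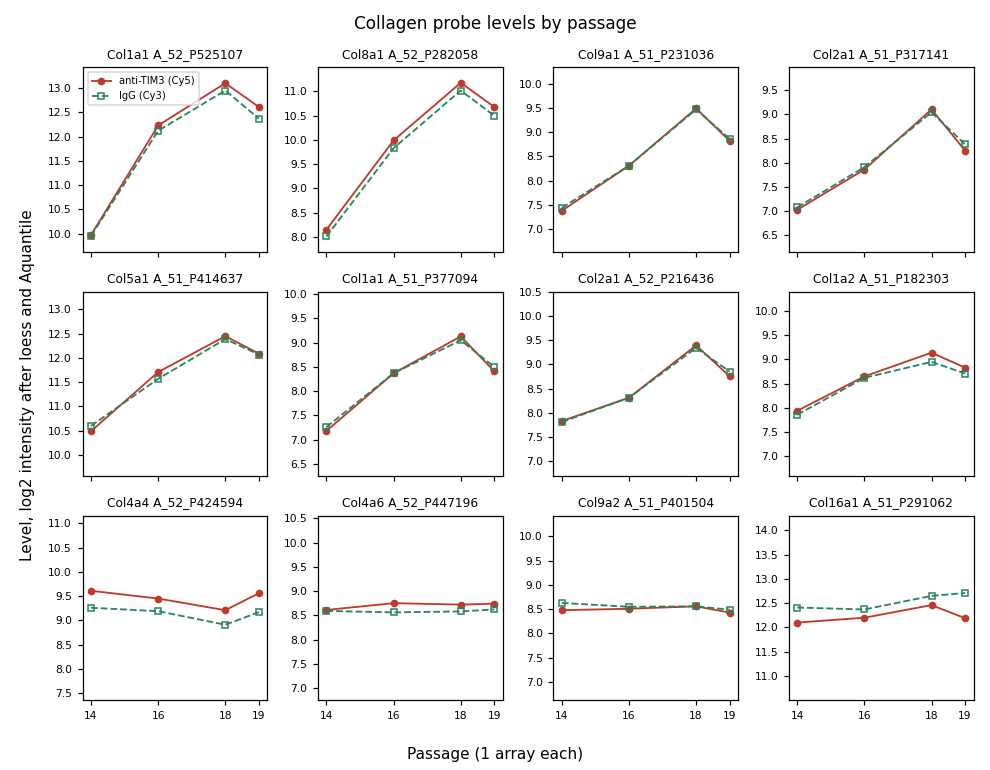
Level (log2 intensity after loess and Aquantile scaling, y axis, each panel spanning the same height) of 12 collagen probes at passages 14, 16, 18 and 19 (x axis, 1 array each), with anti-TIM3 cells as filled circles and IgG cells as open squares. The first 8 panels are the probes with a range over 1 and peak at passage 18 in both channels, and the last 4, of Col4a4, Col4a6, Col9a2 and Col16a1, stay within 0.40.

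Other genes moved between passages as well. Postn, the matrix protein periostin on the fibroblast list, had levels of 9.64, 10.13, 10.65 and 10.35 in anti-TIM3 cells, against 9.79, 10.19, 10.62 and 10.34 in IgG cells, in the collagen order. Pcolce2, an enhancer of procollagen C-proteinase, had a range of 1.26 in anti-TIM3 cells and 1.21 in IgG cells and was likewise highest at passage 18 in both. Tyr, the tyrosinase of melanin synthesis, ran the other way, with levels of 10.62, 10.30, 9.72 and 10.06 in anti-TIM3 cells, against 10.62, 10.29, 9.79 and 10.02 in IgG cells. The other 6 melanocyte markers had ranges of at most 0.26 in anti-TIM3 cells and 0.46 in IgG cells. The fibroblast marker Pdgfrb had a range of 0.21 in anti-TIM3 cells and 0.12 in IgG cells. Whether fibroblast-like or other cells had a part in the collagen differences was not tested, and more RNA per cell and more cells of a kind cannot be told apart in bulk RNA.

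The count of probes with a range over 1 depended on which passages entered. Without replicate 1 (passage 14) it was 4 probes, against 0.136% of all probes, and without replicate 3 (passage 18) it was 6, against 0.345%. Leaving out replicate 2 or 4 kept it at 8. In the deposited processed signals, with each channel centred on its median, 10 of the 27 probes had a range over 1, against 1.61% of all probes.

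**Figure D3:**
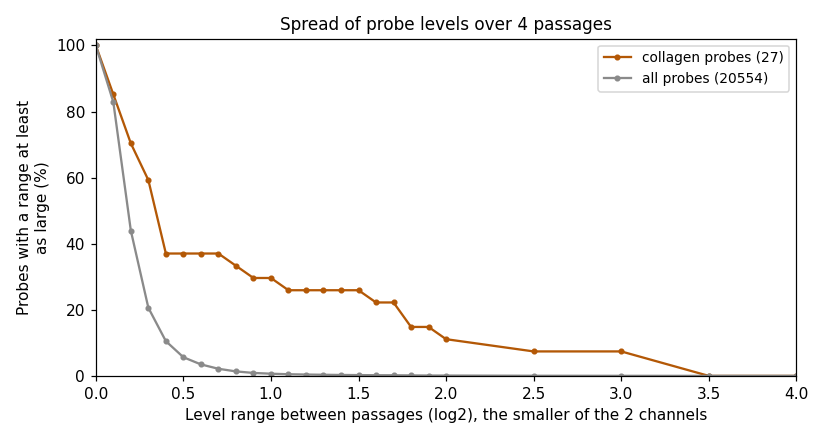
Share of probes (y axis, percent) whose level range over the 4 passages, in the channel with the smaller range, was at least the value on the x axis (log2), for 27 collagen probes and 20554 probes of any gene, all detected on every array in Cy5 and Cy3. The collagen curve stays above the other curve at every marked range from 0.1 to 3.00.

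Between anti-TIM3 and IgG the collagen probes differed little, and about as often as any probe. Ratios are log2 of anti-TIM3 over IgG on 1 array after loess, and 43 collagen probes of 30 genes were tested with limma among 26545 probes, with p-values adjusted by Benjamini-Hochberg over all of them. At an adjusted p under 0.05, 9 probes of 8 genes were higher in anti-TIM3 cells, 4 probes of 4 genes were lower, and 30 did not pass. That is 30.2% called, against a background of 27.8% of all tested probes, of which 14.2% were higher and 13.6% lower. The median log2 ratio was 0.02 for the collagen probes and 0.01 for all tested probes, and the median size of the ratio, sign aside, was 0.06 and 0.08. Collagen ratios ran from -0.30 to 0.33, so no collagen probe's mean reached a 1.5-fold change after loess. In the deposited ratios Col17a1 (0.68) and Col9a3 (-0.60) lay past that size. The ratio had the same sign on all 4 arrays for 19 of the 43 collagen probes (44.2%), against 47.7% of all tested probes.

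The 13 calls depended on the processing. With the arrays centred on their medians and no loess, limma called 0 collagen probes higher and 0 lower (2 and 0 at an unadjusted p under 0.05). On that scale the median ratio was 0.09 over the collagen probes and 0.15 over all tested probes. Calls below are therefore relative to the loess scale. In the authors' deposited ratios, processed by the scanner software, 6 collagen probes were higher and 2 lower, against a background of 19.8% of all tested probes (10.8% higher and 8.97% lower), and all 8 were also called after loess with the same sign. Single arrays mattered too, with 4 collagen probes higher without replicate 2, 5 without replicate 3 and 2 without replicate 4, against 9 in the full fit. Without any 1 of replicates 2, 3 and 4 the calls of Col1a1, Col3a1, Col4a6, Col11a2 and the second Col4a4 probe were lost, with limma adjusted p from 0.0614 to 0.182. Col14a1 was lost without replicate 1, 2 or 4 (0.132, 0.0743 and 0.161), and Col4a5 and Col17a1 without replicate 4 (0.0566 and 0.0519).

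Probe composition moved with direction. The 9 probes that were higher had a median GC content of 36.7%, the 4 that were lower 53.3%, and the 43 tested probes 45%. With trends on intensity and on base counts removed from each array, an alternative added after the data were seen, 5 collagen probes were higher and 3 lower, beside 2971 higher and 3153 lower among all tested probes (3776 and 3600 before).

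Type IV collagen held 4 of the 9 higher probes, more than any other family. Of its 8 tested probes 4 (of Col4a4, Col4a5 and Col4a6) were higher, 0 were lower and 4 did not pass, with a median of 0.11 beside 0.01 for all tested probes. The background for this count and for those of the families below was 14.2% of all tested probes higher and 13.6% lower. Col4a4, a chain of the mature basement membrane of kidney, eye and ear, had the largest ratio of any collagen probe after loess. On A_52_P424594 its deposited signal was 747, 496, 419 and 534 in anti-TIM3 cells, against 530, 395, 323 and 397 in IgG cells, and the anti-TIM3 channel was the higher on every array. Its log2 ratios were 0.35, 0.27, 0.30 and 0.39, a mean of 0.33 ± 0.06 (SD, n = 4; limma adjusted p = 0.000805), and 0.41 in the deposited ratios. The other Col4a4 probe, A_51_P382708, gave 0.08, 0.15, 0.15 and 0.18, a smaller mean of 0.14 ± 0.04 (SD, n = 4; limma adjusted p = 0.0194).

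Col4a5, which pairs with Col4a3 and Col4a4, had log2 ratios of 0.09, 0.13, 0.21 and 0.26, a mean of 0.17 ± 0.08 (SD, n = 4; limma adjusted p = 0.0126). Col4a6, its neighbour on the X chromosome, had ratios of 0.02, 0.19, 0.14 and 0.13, a mean of 0.12 ± 0.07 (SD, n = 4; limma adjusted p = 0.0468). All 4 arrays were above 0 for both genes, but the Col4a5 call was lost in the deposited ratios (limma adjusted p = 0.0559), and the Col4a6 call in 9 of 16 alternatives. The chains of the common type IV network did not pass in the full fit. Col4a1 gave -0.03, 0.14, 0.18 and 0.14 on A_51_P124254 and -0.09, 0.00, 0.12 and 0.07 on A_52_P518827. On A_51_P124254 the mean of 0.11 (limma adjusted p = 0.0771) was close to that of Col4a6. That probe passed without replicate 1 and with array weights (limma adjusted p = 0.0254 and 0.0228). Col4a2 gave -0.07, 0.08, 0.08 and 0.00 on A_51_P491350 and -0.14, 0.08, 0.08 and -0.27 on A_52_P496142, with signs differing between arrays on each of these 4 probes.

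Among the fibrillar collagens 2 of 16 tested probes were higher, 2 were lower and 12 did not pass, with a median of 0.00. Col1a1 on A_52_P525107 had log2 ratios of 0.02, 0.11, 0.15 and 0.23, a mean of 0.13 ± 0.09 (SD, n = 4; limma adjusted p = 0.0472), whereas A_51_P377094 gave -0.08, 0.00, 0.07 and -0.09 and did not pass. The 2 Col1a1 probes thus differed in call, although the difference between them was not tested. The call was lost in 9 of 16 alternatives, among them the fits without replicate 2, 3 or 4. Col1a2 had ratios of 0.07, 0.03, 0.20 and 0.12, all above 0, with a limma adjusted p of 0.0674. Col3a1 on A_51_P515605 had ratios of 0.08, 0.14, 0.14 and 0.10, a mean of 0.12 ± 0.03 (SD, n = 4; limma adjusted p = 0.032), and 0.45 in the deposited ratios. It was not well above background in Cy3 on any array, so the IgG level is only a bound. With that level set no lower than the dimmest detected Cy3 level of each array, the mean log2 difference was 0.00, and no fold is given. With median centring the Col3a1 ratio was -0.01.

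The fibrillar probes that were lower lay on Col27a1 and Col11a2. Col27a1, a cartilage-associated fibrillar chain, had ratios of -0.15, -0.25, -0.22 and -0.11 on A_52_P129388, a mean of -0.18 ± 0.06 (SD, n = 4; limma adjusted p = 0.00866). This probe was above background on 3 arrays in Cy5 and on 1 in Cy3, and the other 2 tested Col27a1 probes had mean ratios of -0.07 and -0.01 and did not pass. Col11a2 on the helical probe A_52_P563285, shown above, had ratios of -0.04, -0.20, -0.22 and -0.06, a mean of -0.13 ± 0.09 (SD, n = 4; limma adjusted p = 0.0448). That probe was close to background, well above it on 4 arrays in Cy5 and on 3 in Cy3. The other Col11a2 probe, A_51_P264666, gave 0.02, 0.15, 0.16 and -0.21 and did not pass. The gene's probes thus differed in call too, and the difference between them was not tested. Of the other helical probes, Col5a1 A_52_P237371 had a mean ratio of 0.02 and was not well above background in Cy3 on any array, and that of Col5a3 was not tested.

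The remaining fibrillar probes detected throughout did not pass either. Col2a1 gave -0.05, -0.05, 0.05 and -0.13 on A_51_P317141, which was also printed 10 times per array, and 0.02, 0.01, 0.05 and -0.11 on A_52_P216436. Col5a1 on A_51_P414637 gave -0.11, 0.14, 0.07 and 0.02. Col5a3 gave -0.23, 0.08, 0.17 and -0.13. These genes had ratios of both signs on the 4 arrays, and for Col2a1, Col5a1 and the second Col1a1 probe they stand beside level ranges of at least 1.52 between passages.

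Of the 8 tested probes of fibril-associated collagens 1 was higher, 2 were lower and 5 did not pass. Col16a1, found in skin and cartilage and bound by integrins, had a deposited signal of 4320, 3610, 4440 and 3750 in anti-TIM3 cells, against 5190, 3930, 4890 and 5340 in IgG cells. The anti-TIM3 channel was the lower on every array, most so at passage 19. Its log2 ratios were -0.31, -0.17, -0.19 and -0.52, a mean of -0.30 ± 0.16 (SD, n = 4; limma adjusted p = 0.00647), but the call was lost in the deposited ratios (limma adjusted p = 0.0694), and with median centring the ratio was 0.06. Col9a3 had ratios of -0.16, -0.18, -0.24 and -0.24, a mean of -0.21 ± 0.04 (SD, n = 4; limma adjusted p = 0.00401), and -0.60 in the deposited ratios. The other type IX chains did not pass, with -0.06, 0.00, 0.02 and -0.05 for Col9a1 and -0.15, -0.03, 0.01 and -0.06 for Col9a2.

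Col14a1, also named undulin, was the fibril-associated chain that was higher, with ratios of 0.20, 0.08, 0.03 and 0.21, a mean of 0.13 ± 0.09 (SD, n = 4; limma adjusted p = 0.0452). That call was lost in 11 of 16 alternatives. Col20a1 gave -0.05, -0.15, 0.06 and -0.04, and both Col22a1 probes had means of 0.00 and 0.04, none of which passed.

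Of the short-chain collagens 1 of 3 tested probes was higher and 0 were lower. Col8a1 on A_52_P282058 had ratios of 0.14, 0.15, 0.16 and 0.18, a mean of 0.16 ± 0.01 (SD, n = 4; limma adjusted p = 0.00869), the smallest SD among the called probes, across passages whose levels differed by 3.03 in anti-TIM3 cells and 3.02 in IgG cells. Its second probe gave 0.04, 0.22, 0.04 and 0.19, a mean of 0.12 that did not pass (limma adjusted p = 0.0572). Col10a1, the collagen of hypertrophic cartilage, had a mean of -0.07 and did not pass.

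Of the transmembrane collagens, Col17a1 had a deposited signal of 20.7, 34.7, 43.6 and 36.9 in anti-TIM3 cells, against 12.4, 24.1, 26.3 and 22.6 in IgG cells. Its ratios were 0.08, 0.15, 0.23 and 0.35, a mean of 0.20 ± 0.11 (SD, n = 4; limma adjusted p = 0.013), and 0.68 in the deposited ratios. It was well above background on 4 arrays in Cy5 and on 0 in Cy3. With its IgG level set no lower than the dimmest detected Cy3 level of each array, the mean in anti-TIM3 cells was 1.13-fold higher. That figure leaves out the spread between arrays, and the 95% confidence interval of the mean log2 ratio ran from 0.10 to 0.31. The call was lost with intensity and base-count trends removed (limma adjusted p = 0.0546). Col25a1, a collagen of neurons, gave 0.12, -0.03, 0.00 and -0.05 and did not pass.

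The other families held no call. Col7a1 gave -0.07, -0.08, -0.03 and -0.36, and its mean of -0.13 had a limma adjusted p of 0.0953. The multiplexins Col15a1 and Col18a1 gave 0.05, 0.02, 0.08 and -0.09 and, on A_51_P191700, 0.11, -0.09, -0.08 and -0.04. Col6a1 and Col6a2 had means of 0.02 and 0.03, and the 4 arrays of Col6a2 ran from -0.29 to 0.60. In all, the 30 probes that did not pass had means from -0.13 to 0.12.

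**Figure D4:**
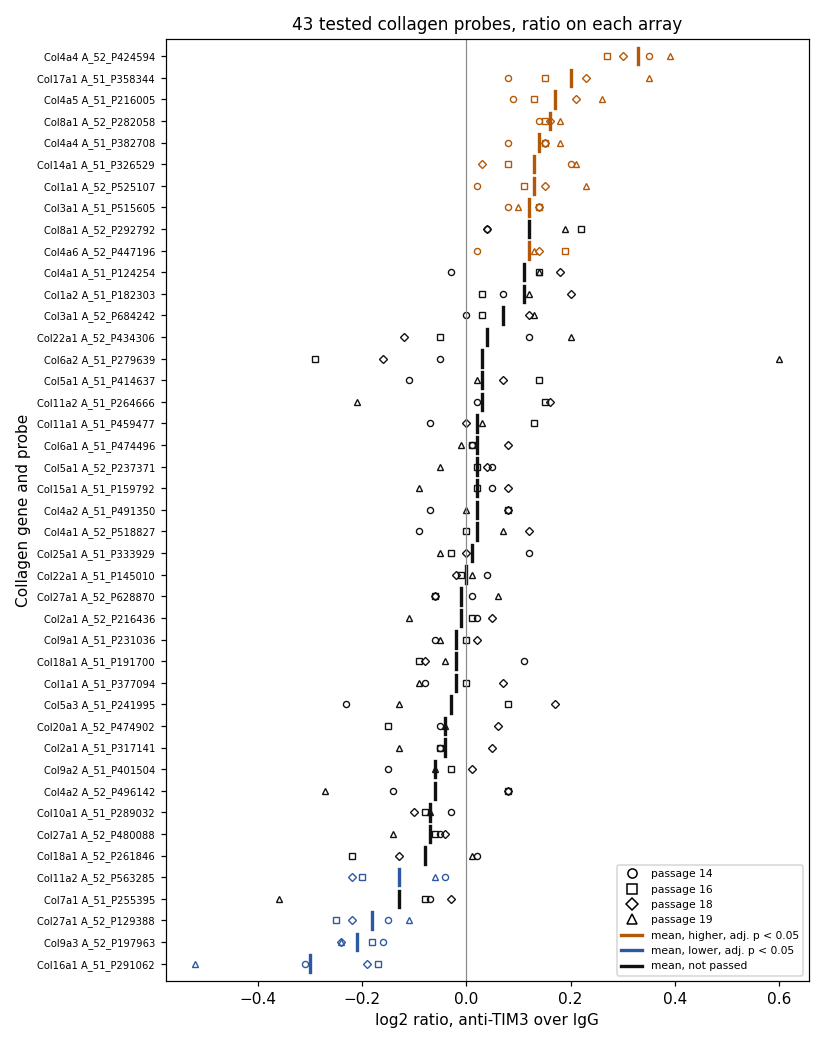
Log2 ratio of anti-TIM3 over IgG (x axis) on each of 4 arrays (symbols, by passage) for the 43 tested collagen probes (y axis, ordered by mean), with the mean as a bar coloured by the limma call. Means run from -0.30 for Col16a1 to 0.33 for Col4a4, with 9 called higher and 4 lower.

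The size of a ratio depended on the processing. The deposited mean log2 ratios of Col17a1, Col3a1, Col9a3, Col27a1 and Col11a2 were 0.68, 0.45, -0.60, -0.52 and -0.31, all farther from 0 than the means after loess. When the normexp offset was 10 and not 50, the means of these probes were 0.34, 0.21, -0.32, -0.29 and -0.21. The deposited means of the brighter probes of Col1a1 (A_52_P525107), Col8a1 (A_52_P282058) and Col16a1 were 0.15, 0.18 and -0.26, beside 0.13, 0.16 and -0.30 after loess, although the calls of Col1a1 (limma adjusted p = 0.0651) and Col16a1 were lost there. Median centring without loess moved these to 0.49, 0.49 and 0.06, and the dimmer Col17a1 and Col9a3 to 0.18 and -0.26.

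**Figure D5:**
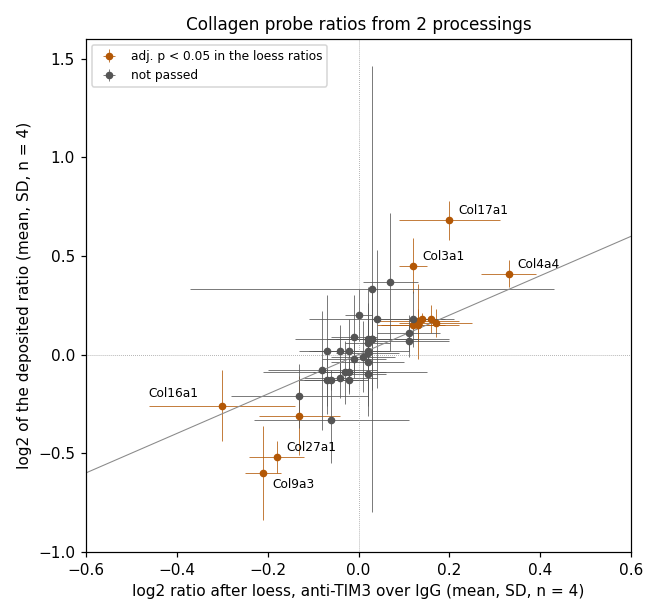
Mean log2 of the authors' deposited ratio (y axis) against the mean log2 ratio after loess (x axis), both anti-TIM3 over IgG, for 43 collagen probes, with SD bars over 4 arrays and a line of equality. Col17a1, Col3a1, Col9a3 and Col27a1 lie farther from 0 on the y axis than on the x axis, and all 13 called probes keep their sign.

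Genes that make, trim, bind or degrade collagen were taken from lists of 56 genes, of which 55 were on the array and 36 were tested. Of these 7 were higher in anti-TIM3 cells, 6 were lower and 23 did not pass, a share of 36.1% beside the background of 27.8%. Without replicate 4 the count of higher genes was 3. Each gene stands for its brightest tested probe, whereas the background counts every tested probe, dim ones included, so the shares are not like for like. The same background, of 14.2% higher and 13.6% lower, belongs beside the counts of each list below.

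Among the folding and modifying enzymes of the endoplasmic reticulum 3 of 16 tested genes were higher and 5 lower. The prolyl 4-hydroxylase subunits P4ha1 and P4ha2, which stabilise the helix, had mean log2 ratios of 0.16 ± 0.04 and 0.22 ± 0.06 (SD, n = 4; limma adjusted p = 0.00903 and 0.00369). Lower were the lysyl hydroxylase Plod1 at -0.37 ± 0.27, the collagen chaperone Fkbp10 at -0.28 ± 0.08 and the collagen galactosyltransferase Colgalt1 at -0.18 ± 0.03 (SD, n = 4; limma adjusted p = 0.0135, 0.00221 and 0.00568). The collagen-specific chaperone Serpinh1 had a mean of 0.11 and did not pass. Second probes of P4ha1 and Plod3 had means of -0.05 and -0.23, so that of Plod3, called higher at 0.12 on its brightest probe, went the other way and passed (limma adjusted p = 0.0176). In the deposited ratios the calls of P4ha1, Plod1 and Plod3 were lost (limma adjusted p = 0.0558, 0.0801 and 0.0842).

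Among the cross-linking and processing enzymes 1 of 8 tested genes was higher, the lysyl oxidase-like Loxl2 at 0.31 ± 0.33 (SD, n = 4; limma adjusted p = 0.0448). Its arrays gave 0.45, 0.69, -0.08 and 0.20, and the call was lost in the deposited ratios (limma adjusted p = 0.113). The second Loxl2 probe had a mean of 0.32 and passed after loess (limma adjusted p = 0.00111). Lox itself had no tested probe. Of 5 tested receptor genes the discoidin domain receptor Ddr1 (0.20 ± 0.07) and the collagen-binding integrin chains Itga1 (0.18 ± 0.08) and Itga11 (0.18 ± 0.12) were higher, and Ddr2 (-0.16 ± 0.03) was lower (SD, n = 4; limma adjusted p = 0.00631, 0.0113, 0.02 and 0.00969). Itga11 was not well above background in Cy3 on any array, and it did not pass in the deposited ratios (limma adjusted p = 0.101). With its IgG level set no lower than the dimmest detected Cy3 level, its mean in anti-TIM3 cells was 1.07-fold higher, the spread between arrays left out. The other 3 tested probes of Itga1 had means of 0.00, 0.03 and 0.04 and did not pass. Ddr2 did not pass in the deposited ratios (limma adjusted p = 0.0649). Its second probe, at -0.10, did not pass after loess (limma adjusted p = 0.107). Of 3 collagen-degrading and 4 collagen-binding genes tested, among them Mmp2, Mmp14 and Sparc, 0 passed on their brightest probe, while the second Mmp14 probe was lower at -0.29 (limma adjusted p = 0.00716).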

How the data were processed

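Per the file headers and the submitters' processing notes, the authors scanned the arrays and ran Agilent Feature Extraction (version 9.5.1.1 in the headers). The deposited spot intensities and local backgrounds are unnormalised intensity values, the deposited processed signals are background-subtracted and dye-normalised intensity, and the deposited ratio is the log10 of Cy5 over Cy3. The series' value table equals that ratio on all 45018 spots (within 1e-06). The deposited flags are an other kind of value, 0 or 1.

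Mean signals were corrected with normexp (offset 50) and normalised by loess within arrays, with control spots at weight 0 and outlier spots left out (2 of 384 collagen spot measurements), in limma 3.58.1 under R 4.3.3. Spots of a probe were averaged, and levels were scaled between arrays by Aquantile. Probes well above background in 1 channel on at least 3 of 4 arrays were tested (lmFit, eBayes, two-sided, log2 ratio against 0). On simulated ratios for the 26545 probes, with 50 probes changed at each size, 2%, 42%, 94% and 96% of changes of 0.1, 0.25, 0.5 and 1 were recovered, with 4 false calls. The data gave 7376 calls, and the adjustment depends on how many probes change, so these rates need not hold for the data. RefSeq accessions matched 57 of 78 probes. RefSeq names 2 further collagen probes (Col6a6, Col26a1) outside the name rule, never above background.

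Every collagen gene is accounted for. Values per array are given for each called probe and each probe detected in both channels on all arrays. Of the partner lists, genes that passed are named, at most 5 a list, by their brightest probe. The melanocyte markers, Pdgfra, Lum, Cd3e, Cd68, Serpinh1, Plod3, Lox, second probes and the genes set beside the passage ranges were named after their values were seen. The members and lists were chosen with earlier results of these data known. A base-count correction and the passage alternatives were added after seeing the data.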

Additional observations from a re-analysis of the deposited data

Results flagged for a closer look

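In 3 of the 43 tested collagen probes 1 of the 4 arrays stood apart from the others by Dixon's test at the 95% level, a test that chance fails in about 1 of 20 groups. For Col7a1 the log2 ratio of anti-TIM3 over IgG was -0.36 on replicate 4 (passage 19), with the other arrays from -0.08 to -0.03. For Col6a1 it was 0.08 on replicate 3 (passage 18), with the others from -0.01 to 0.01. For Col27a1 (A_52_P480088) it was -0.14 on replicate 4, with the others from -0.06 to -0.04. None of these 3 probes passed the limma test.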

How the results depend on the processing

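The arrays are few, have no exchanged dyes, and come from 1 line, with 1 array per passage. Of the 13 called collagen probes 0 kept their call in all 16 alternatives, since median centring without loess and the fit of the channels as separate samples gave 0 calls each. The 5 that kept it with any 1 replicate left out were those of Col4a4 (A_52_P424594), Col8a1, Col9a3, Col16a1 and Col27a1. Direction turned only with median centring, for Col3a1 (-0.01) and Col16a1 (0.06). Across the replicates left out, the collagen probes numbered 2 to 9 higher and 3 to 4 lower, those with a level range over 1 numbered 4 to 8, the partner genes 3 to 6 higher and 4 to 5 lower, and all tested probes 2142 to 3515 higher and 2080 to 2736 lower. With the deposited ratios 2 collagen probes and 2382 of all tested probes were lower, and 3 partner genes were higher. With median centring limma called 0 collagen probes higher and 0 lower (2 and 0 at an unadjusted p under 0.05), 0 partner genes in each direction (2 and 0) and 0 of all tested probes in each direction (968 and 38). Keeping only probes detected on every array in Cy5 and Cy3 left 7 collagen probes higher and 2 lower, fewer of them being tested. With intensity and base-count trends removed 5 collagen probes were higher. With the channels fitted separately, without the replicate block that pairing on an array gives, limma called 0 collagen probes in each direction (2 and 3 at an unadjusted p under 0.05), 0 partner genes in each direction (5 and 4), and 330 of all tested probes higher and 252 lower. The cause of these differences was not tested. Signals near background limit the ratios of Col3a1, Col17a1, Col9a3, Col11a2 (A_52_P563285) and Col27a1.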
